A study of Mus musculus with 24 samples.

Results

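The macrophage genes described here are Emr1, Cd68, Csf1r, Cd14, Mrc1, Cd163, Lyz1, Lyz2, Itgam and Itgax. They were chosen by name: a probe belongs to them when the gene name in the array annotation equals a member and the spot is not a control. Emr1 is the older symbol of Adgre1. The rule found 10 genes with 16 probes, among 34797 gene names and 55681 probes on the arrays. RNA of mammary tissues from 24 female mice was measured, each mouse on its own 1-colour Agilent array. There were 8 groups of 3 mice. BALB/c mice, a common inbred laboratory strain, were sham treated or exposed to low-dose ionizing radiation (LDIR), and tissue was taken 2, 4 or 8 weeks later. SPRET/EiJ mice, inbred from wild Mus spretus, were sham treated or exposed in the same way, and tissue was taken at 4 weeks. LDIR was a whole-body X-ray dose of 10 cGy given at 8 to 9 weeks of age. The comparisons ask whether these genes differ after LDIR, between the strains and over time.

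Macrophages are resident phagocytes that arise from embryonic precursors or from blood monocytes and depend on signalling through the receptor encoded by Csf1r. In the mammary gland they lie in the fat and around the ducts, where they clear dying cells and take part in the growth and the remodelling of the epithelium. Macrophage states are often described by surface receptors for debris, such as those of Mrc1 and Cd163, against genes of inflammatory activation, and the genes listed here are shared to different degrees with monocytes, neutrophils and dendritic cells.

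Several genes were measured by more than 1 probe, namely Emr1 and Cd68 by 2 each and Csf1r and Itgam by 3 each, while 6 genes had 1 probe. Each gene is given by probe 1, the probe with the highest mean over the 24 arrays, and the others are given where they bear on the result. In the mm9 build of the array files, Emr1 probe 1 lies at chr17:57622868-57622927 on the plus strand, Cd68 probe 1 at chr11:69477775-69477834 on the minus strand, Mrc1 at chr2:14253273-14253332, Cd163 at chr6:124270436-124270495 and Itgax at chr7:135294052-135294111. Csf1r and Cd14 are on chromosome 18. Whether a probe lies in an exon or in a UTR was not analysed here.

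The probes of Itgam and Cd68 are shown because probes of the same gene gave different results, and those of Lyz1 and Lyz2 because the 2 genes are neighbouring copies. Each line gives the first 30 of 60 bases, except the last Itgam line, which gives the last 30 bases of probe 1. Capitals mark a run of 10 CA units at the start of Itgam probe 1 and the run of T at its end.

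Itgam probe 1, chr7:135261755-135261814, start: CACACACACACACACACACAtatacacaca
Itgam probe 1, end: ctgctttaaacaagtggtaacacaTTTTTT
Itgam probe 2, chr7:135260275-135260334: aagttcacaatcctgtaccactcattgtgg
Itgam probe 3, chr7:135212140-135212199: tgttaaccagacaggtgccctctaccagtg
Cd68 probe 1, chr11:69477775-69477834: gcctcatctcttcaccatgccactgactca
Cd68 probe 2, chr11:69478979-69479038: ccgaatcctatacccaattcagggtggaag
Lyz1, chr10:116724862-116724921: ccaataaccacaggagcaaatctaatctca
Lyz2, chr10:116719175-116719234: aacgttgtgagtttgccagaactctgaaaa

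A CA run of at least this length was found in 24 of the 55681 probes, which is 0.0431%. Itgam probes 2 and 3 have no such run. The longest stretch of identical bases shared by the Lyz1 and Lyz2 probes was 6 bases, so these probes differ although the genes are close copies.

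Lyz1 and Lyz2 also showed similar profiles over the arrays, as given at the end, so the 250 bases before the start of each gene are shown from RefSeq (GRCm38.p6). Both are read on the minus strand, and capitals mark ACTTCCT, the reverse complement of AGGAAGT, a core bound by ETS factors such as the myeloid factor PU.1.

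Lyz1, chr10:117292869-117293118: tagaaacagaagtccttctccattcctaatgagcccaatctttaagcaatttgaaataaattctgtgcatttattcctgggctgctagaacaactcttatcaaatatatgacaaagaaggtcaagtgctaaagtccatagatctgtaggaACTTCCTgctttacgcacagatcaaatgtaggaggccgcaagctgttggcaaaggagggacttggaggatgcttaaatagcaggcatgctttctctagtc
Lyz2, chr10:117282273-117282522: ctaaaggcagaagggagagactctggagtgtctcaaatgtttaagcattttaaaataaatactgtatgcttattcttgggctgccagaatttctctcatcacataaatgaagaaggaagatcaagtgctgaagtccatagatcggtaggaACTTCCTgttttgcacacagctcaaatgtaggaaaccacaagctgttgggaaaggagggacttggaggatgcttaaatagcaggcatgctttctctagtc

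The upstream regions of Lyz1 and Lyz2 were identical at 200 of 252 aligned columns (79.4%), and the marked letters end 94 bases before the start in each. Of the 7 members with an upstream sequence in the table, 3 held AGGAAGT on either strand, namely Lyz1, Lyz2 and Mrc1. Over all 32851 upstream regions of the same length the share was 7.69%. A match of letters is a description of the sequence and not a measured binding site.

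Values are levels on the log2 scale, as the array's background-subtracted intensity minus the 75th percentile of that array, so a level of 0 is that percentile. Differences between groups are on the same scale, with the standard error (SE) from limma. A probe was counted as past both thresholds when its unadjusted p was under 0.05 (under 0.001 between strains) and its change was over 1.5-fold. The p adjusted over all probes by the Benjamini-Hochberg procedure is printed beside it. With 3 arrays in a group, the smallest two-sided p that exact permutation of 1 probe could reach is 0.1. Every one of the 16 probes was well above background on each of the 24 arrays, and 0 spots were saturated. The defining markers of mammary tissues were present too, with 7 of 7 epithelial and 6 of 6 adipocyte markers well above background on every array. These are bulk tissues, in which fewer macrophages and less RNA per macrophage cannot be told apart.

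The arrays lay on 3 slides. At 4 weeks, BALB/c sham replicates A and B were on slide 1 and replicate C shared slide 2 with the 3 LDIR arrays, and all SPRET/EiJ arrays were on slide 3. At 8 weeks, the BALB/c sham arrays and LDIR A were on slide 2 and LDIR B and C on slide 3. In addition, 3 arrays stood apart by B cell markers, a list of 4 genes of which 2 were well above background on all 24 arrays. The mean level of those 2 genes was 4.45 to 4.68 on BALB/c 8-week sham A, BALB/c 8-week LDIR B and SPRET/EiJ LDIR A, and -0.85 to 0.76 on the other arrays. Mean levels of every list were taken in this way over its genes well above background on all 24 arrays. Median differences of a list used all of its genes. Pan-leukocyte markers were at 5.10 to 6.07 on these 3 arrays and at most 2.02 elsewhere. Lyz2 and Itgax had the highest value of their group on 3 of these 3 arrays, and Cd14 and Cd163 had the lowest on 3 of 3. For several results the value without these arrays is given too, though not for every member, as an alternative chosen after seeing the data.

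The levels of the 10 genes differed in their order over the 8 groups. Emr1, Cd68, Lyz1, Lyz2 and Itgam had their highest group mean in SPRET/EiJ mammary tissues, and Cd163 and Itgax their lowest. Csf1r was highest in BALB/c 8-week sham tissues, Cd14 and Itgax in BALB/c 8-week LDIR tissues, and Mrc1 and Cd163 in BALB/c 4-week LDIR tissues. Most neighbours in these orders did not differ beyond their spread. Of 7 neighbouring pairs of groups, the gap between means exceeded the mean within-group SD in 3 pairs for Itgax, in 1 pair each for Emr1, Cd68, Csf1r, Lyz1, Lyz2 and Itgam, and in 0 pairs for Cd14, Mrc1 and Cd163. The widest Itgax gap, 1.31, lay between the 8-week and the 4-week sham tissues of BALB/c. For Lyz2 it was 1.03, between the 4-week and the 2-week LDIR tissues of BALB/c.

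**Figure D1:**
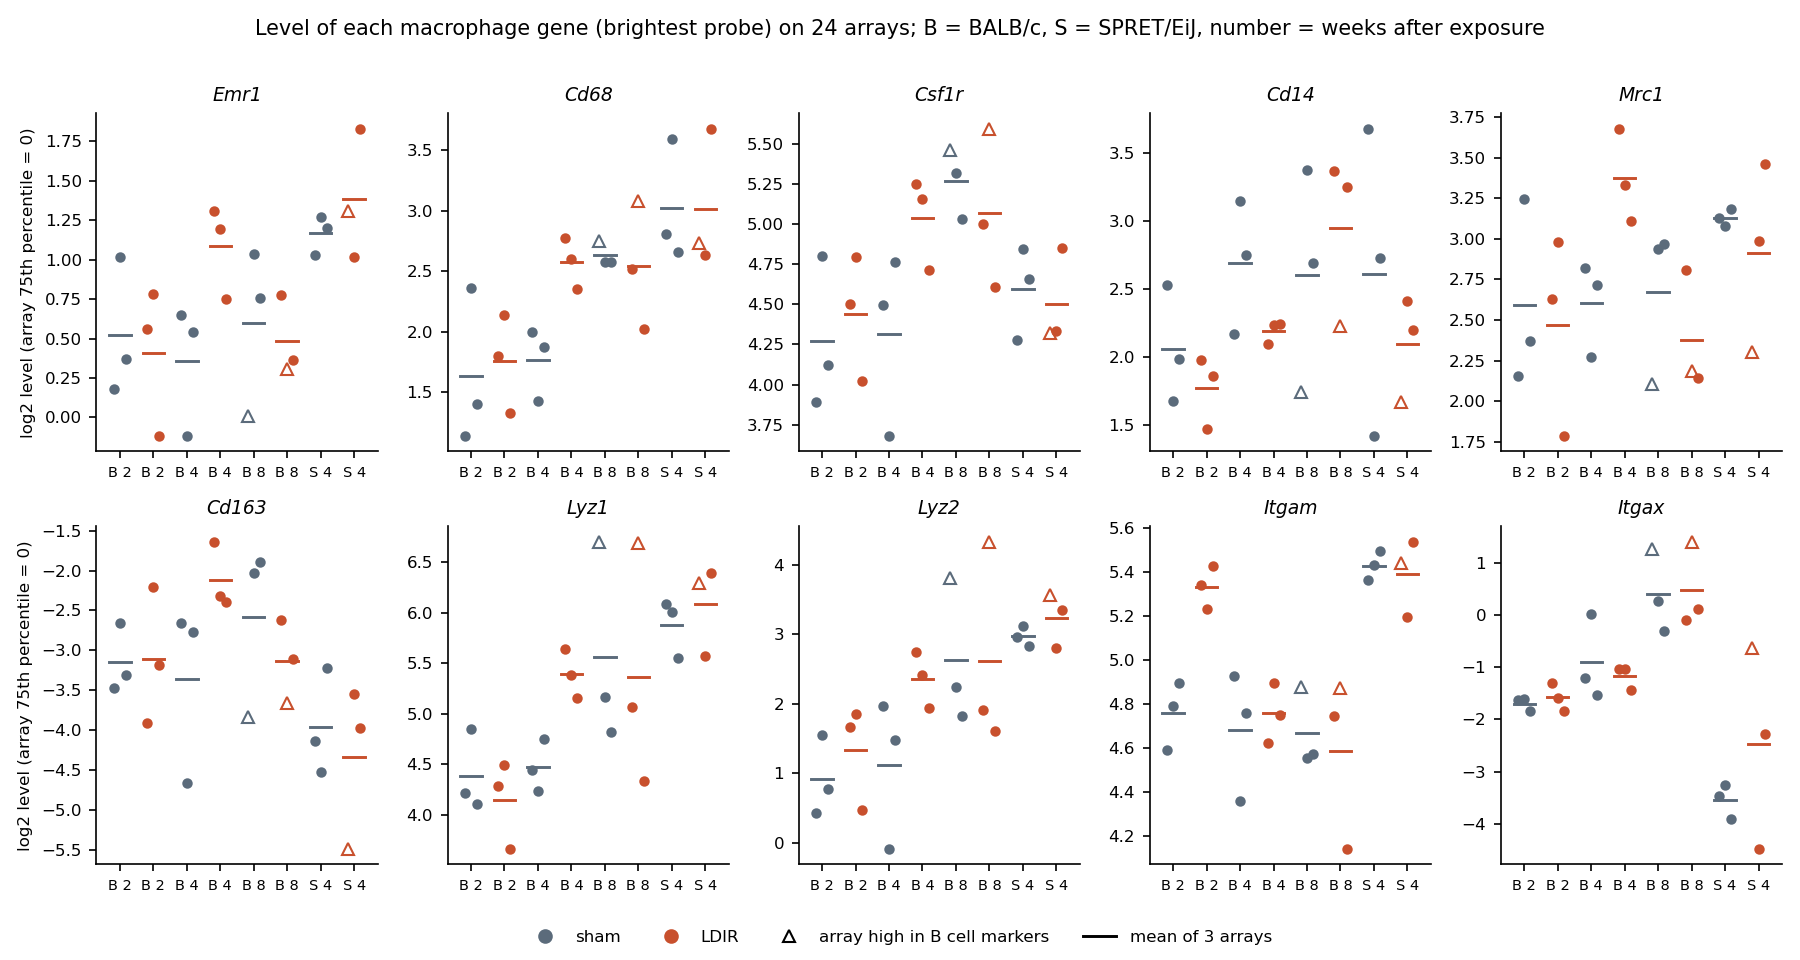
Log2 level of each gene's probe 1 (y axis, 0 is the array's 75th percentile) on the 24 arrays by group (x axis; B is BALB/c, S is SPRET/EiJ, the number is weeks after exposure), with grey for sham, orange for LDIR, bars for the mean of 3 arrays and triangles for the 3 arrays high in B cell markers. The mean Itgax level is lowest in SPRET/EiJ sham tissues, whose arrays lie from -3.90 to -3.25, the lowest single array is a SPRET/EiJ LDIR array at -4.48, and the triangles are highest in their groups for Lyz2 and Itgax.

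At 4 weeks after LDIR, 4 of 10 macrophage genes passed both thresholds in the mammary tissues of BALB/c mice. These were Emr1, Cd68, Mrc1 and Lyz1, all higher than in sham tissues, by 1.66-fold to 1.89-fold. Over all probes 4.78% passed both thresholds and 3.37% did so with a higher level. None of the 4 passed after adjustment over all probes, where the limma adjusted p values of the 10 genes ran from 0.689 to 0.923. The median difference of the 10 genes was 0.75 against 0.02 over all probes, and 8 of 10 were above 0 against 52.6% of all probes. Cd14 (-0.50) and Itgax (-0.26) were below 0, and without sham B the Itgax difference was 0.20.

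Emr1 encodes the adhesion receptor most used to define mouse macrophages. Its levels were 0.65, -0.12 and 0.54 in sham tissues and 1.31, 1.20 and 0.75 after LDIR, so the groups did not overlap, and sham B was the lowest array. Emr1 was 0.73 higher after LDIR (SE 0.27, limma adjusted p = 0.783), but it no longer passed without sham B (0.49), LDIR A (0.61) or LDIR B (0.67). Emr1 probe 2 gave 0.84 (SE 0.25, limma adjusted p = 0.759) and also passed.

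Cd68 encodes macrosialin, a glycoprotein of lysosomes that is abundant in macrophages. Sham levels were 1.99, 1.43 and 1.87 and LDIR levels 2.78, 2.60 and 2.36, with no overlap. The difference was 0.82 (SE 0.22, limma adjusted p = 0.72), a 1.76-fold higher level. Cd68 probe 2 was at -1.94, -3.27 and -2.13 in sham and at -0.97, -1.63 and -1.47 after LDIR, a difference of 1.09 (SE 0.39, limma adjusted p = 0.783), and it passed as well.

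Csf1r encodes the receptor of the growth factors encoded by Csf1 and Il34. It was at 4.50, 3.68 and 4.76 in sham and at 5.25, 5.16 and 4.71 after LDIR, where the lowest LDIR array lay just below the highest sham array. The probe 1 difference of 0.73 (SE 0.32, limma adjusted p = 0.783) did not pass, and it was 0.41 without sham B. Csf1r probe 3 passed with 0.84 (SE 0.32, limma adjusted p = 0.783), and probe 2 gave -0.05. The 3 probes of Csf1r therefore differed in their result, with values of probe 1 and probe 3 alike and probe 2 near 0.

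Among the scavenger and pattern receptors, Mrc1 passed both thresholds and Cd163 and Cd14 did not. Mrc1 encodes the mannose receptor CD206, which takes up glycoproteins. Its sham levels of 2.82, 2.27 and 2.72 were all below the LDIR levels of 3.68, 3.33 and 3.11. The Mrc1 difference was 0.77 (SE 0.23, limma adjusted p = 0.769), a 1.71-fold higher level. Cd163 encodes the receptor that clears complexes of haptoglobin and haemoglobin. It was at -2.66, -4.66 and -2.77 in sham and at -1.64, -2.32 and -2.40 after LDIR, so the groups did not overlap and sham B lay below all the other arrays. The Cd163 difference of 1.25 (SE 0.56, limma adjusted p = 0.783) was 0.60 without sham B and 0.55 with normexp background correction. Cd14, the co-receptor that passes bacterial lipopolysaccharide to Tlr4 and Ly96, had the opposite sign. It was at 2.17, 3.15 and 2.75 in sham and at 2.10, 2.24 and 2.24 after LDIR. The Cd14 difference of -0.50 (SE 0.27, limma adjusted p = 0.783) did not pass. Without sham B it was -0.27, and without sham A it was -0.76 and passed.

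Both lysozymes, enzymes that cut bacterial cell walls, had higher means after LDIR. Lyz1 sham levels were 4.44, 4.24 and 4.75 and LDIR levels 5.64, 5.39 and 5.15, without overlap. Its difference of 0.92 (SE 0.21, limma adjusted p = 0.689, 1.89-fold) had the smallest adjusted p of the 10 genes. Lyz2, the lysozyme of macrophages and neutrophils, was at 1.97, -0.09 and 1.49 in sham and at 2.74, 2.41 and 1.94 after LDIR, where the groups overlapped by 1 array. The Lyz2 difference of 1.24 (SE 0.54, limma adjusted p = 0.783) did not pass, and it was 0.64 without sham B.

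Of the integrin genes, Itgam gave values that differed by probe and Itgax had 1 probe. Itgam encodes CD11b, which pairs with the product of Itgb2 to form complement receptor 3 on macrophages and neutrophils. Itgam probe 1, the probe with the CA run, was at 4.93, 4.36 and 4.76 in sham and at 4.62, 4.90 and 4.75 after LDIR, a difference of 0.07 (SE 0.20). Itgam probe 2 was at -1.61, -1.71 and -1.10 in sham and at -0.81, -0.65 and -0.57 after LDIR. The probe 2 difference of 0.80 (SE 0.21, limma adjusted p = 0.719) passed both thresholds, with no overlap, while probe 3 gave 0.36 and did not pass. Itgax encodes CD11c, which dendritic cells also carry. It was at -1.20, 0.02 and -1.54 in sham and at -1.03, -1.04 and -1.44 after LDIR, a difference of -0.26 (SE 0.41). In all, 5 of 10 genes had groups that did not overlap on probe 1, against 12.2% of all probes.

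The 4-week calls did not hold with slide in the fit. On slide 2, with sham C as the only sham array, LDIR tissues were higher by 0.54 for Emr1, 0.71 for Cd68, 0.66 for Mrc1, 0.64 for Lyz1, 0.65 for Cd163, 0.88 for Lyz2 and 0.28 for Csf1r, and Itgax turned to 0.37. Fitted with slide as a block, 0 of 10 genes passed, against 4.6% of all probes. The part of the slide in these differences was not tested beyond these values.

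**Figure D2:**
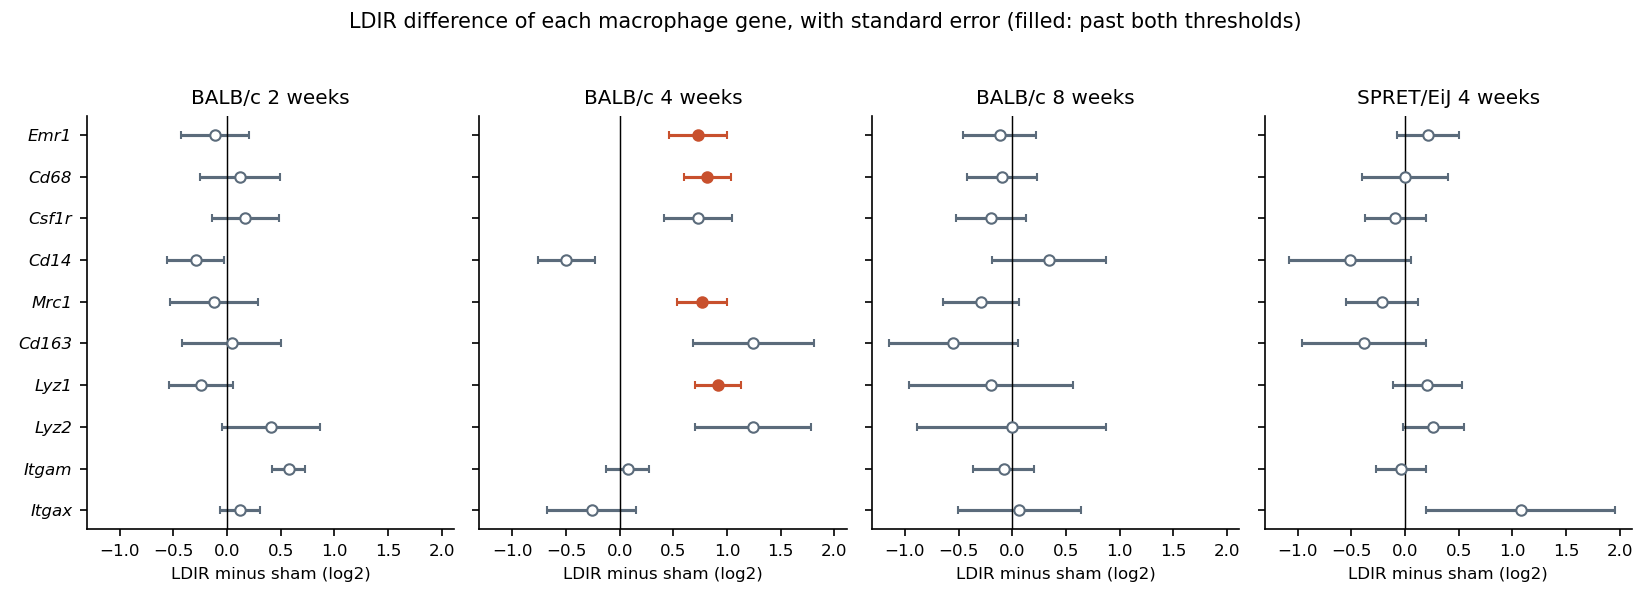
Difference between LDIR and sham tissues (x axis, log2, bars are the standard error) of each gene's probe 1 in the 4 comparisons, with filled points past both thresholds. The filled points are Emr1, Cd68, Mrc1 and Lyz1 at 4 weeks in BALB/c, from 0.73 to 0.92, and no gene passed in the other comparisons.

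Genes that work with the members were described by lists. Over all probes, 4.78% passed both thresholds 4 weeks after LDIR and 3.37% did so with a higher level. Of 30 other macrophage genes, 14 passed and were higher, 0 were lower, and the median difference was 0.66. The largest were Siglec1, a sialic acid receptor of resident macrophages (1.34, SE 0.32, limma adjusted p = 0.689), the folate receptor Folr2 (1.27, SE 0.42) and Timd4, which binds dying cells (1.26, SE 0.42). With slide as a block 4 of the 30 passed and were higher, against 4.6% of all probes in either direction. Without LDIR replicate A, 5 passed and were higher. Over the fits that left out 1 array, the share of all probes ran from 3.86% to 10.9%. Of 6 complement genes made or bound by macrophages, 5 passed and were higher, with a median of 0.87, led by C1qa (1.04), C3ar1 (0.94) and C1qc (0.91). Of 8 genes of alternative activation, 3 passed and were higher, among them Retnla (1.13) and Ear2 (1.02). Of 9 genes of classical activation and 5 of the phagocyte oxidase, 0 passed, with medians of 0.13 and 0.47.

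Ligands and partners of the members gave fewer calls. Of 12 such genes 1 passed, the haptoglobin gene Hp, the ligand of Cd163, which was lower (-0.70, SE 0.27, limma adjusted p = 0.783). Of 8 myeloid transcription factors 0 passed, with a median of -0.10. Markers of other cells that can share these genes were mostly without calls: 0 of 7 dendritic cell markers (median 0.05), 0 of 4 mast cell markers (0.58), 0 of 4 B cell markers (0.28), 0 of 7 T and NK cell markers (-0.18) and 1 of 9 neutrophil markers, Ly6g (1.07). Among tissue markers, 2 of 7 epithelial markers were lower, Krt14 (-0.92) and Krt5 (-0.73), and 0 of 6 adipocyte markers passed (median -0.34). The 3 skeletal muscle markers had a median difference of -2.13 with 0 calls. Only 1 of the 3 was well above background on all 24 arrays. The level of that 1 gene was 2.25, -0.47 and 0.26 on the sham arrays against -0.04, 0.80 and 0.12 after LDIR. The part of such differences in tissue make-up in the macrophage gene values was not tested.

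**Figure D3:**
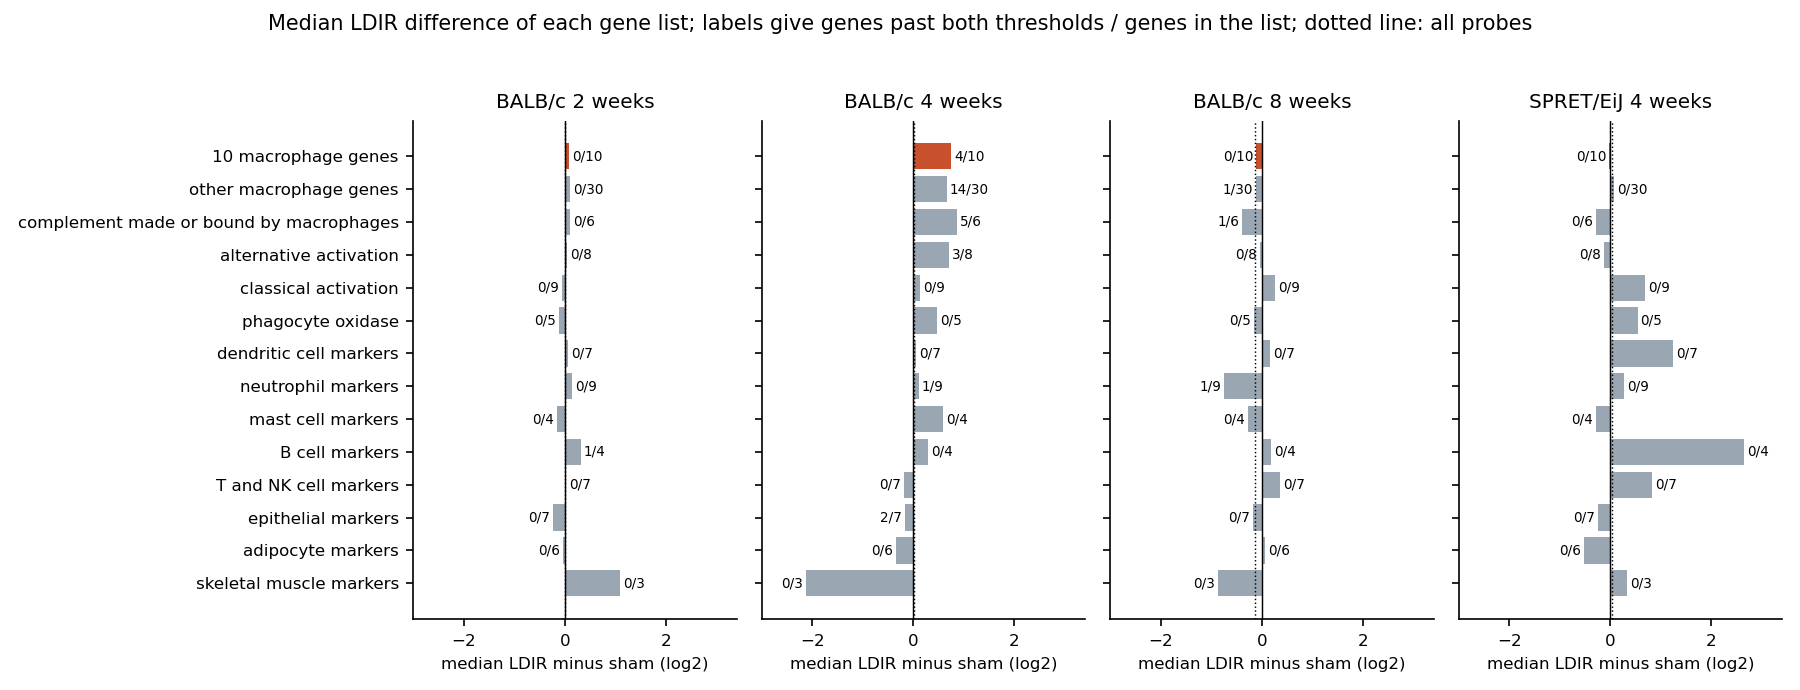
Median difference between LDIR and sham tissues (x axis, log2) of each gene list in the 4 comparisons, with the number past both thresholds over the number of genes in the list beside each bar and a dotted line for the median of all probes. At 4 weeks in BALB/c the bars of the 10 macrophage genes (0.75), other macrophage genes (0.66) and complement (0.87) point to higher levels.

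At 2 weeks after LDIR, 0 of 10 macrophage genes passed both thresholds in BALB/c, against 3.13% of all probes. With limma, 1 of 10 had an unadjusted p under 0.05, against 5.01% of all probes, and it was also the only gene whose groups did not overlap, against 11.6%. This gene was Itgam, whose probe 1 was at 4.59, 4.79 and 4.90 in sham and at 5.34, 5.23 and 5.42 after LDIR. Its difference of 0.57 (SE 0.15, limma adjusted p = 0.894) was 1.49-fold, just under the 1.5-fold threshold. Probe 3 gave 0.41 and probe 2 gave -0.02, so the higher level rested on part of the probes, including the one with the CA run. The other 9 genes lay between -0.29 for Cd14 and 0.41 for Lyz2. The median of the 10 was 0.08, and it was 0.00 over all probes. Emr1 levels of 0.18, 1.02 and 0.37 in sham and 0.56, 0.78 and -0.12 after LDIR overlapped, as did those of the other genes but Itgam.

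At 8 weeks after LDIR, 0 of 10 genes passed in BALB/c, against 1.8% of all probes, and with limma 0 had an unadjusted p under 0.05. Differences ran from -0.55 for Cd163 to 0.34 for Cd14. The median was -0.11 for the members and -0.14 for all probes, and -0.30 and 0.01 without the 2 arrays high in B cell markers. Csf1r was at 5.47, 5.32 and 5.03 in sham and at 5.0, 5.60 and 4.61 after LDIR, and Lyz2 at 3.80, 2.24 and 1.83 in sham and at 1.92, 4.33 and 1.61 after LDIR. The highest Lyz2 array of each group was the one high in B cell markers. Without both of these arrays, the Cd163 difference was -0.91 and 1 of 10 passed, against 4.37% of all probes in that fit, and the values included -0.48 for Mrc1, -0.37 for Csf1r, -0.33 for Emr1 and -0.31 for Cd68. Within slide 2, where LDIR A was the only LDIR array, the differences were -0.04 for Cd163, 0.14 for Mrc1 and 0.17 for Emr1. They were -0.27 for Csf1r, -0.11 for Cd68, -0.71 for Lyz2, -0.50 for Lyz1 and -0.51 for Itgax, and 0.76 for Cd14 and 0.08 for Itgam. Of the 30 other macrophage genes 1 passed, Lyve1 (-1.36, SE 0.51), and of 6 complement genes 1, C5ar1 (-1.24, SE 0.31), both lower. Of 9 neutrophil markers 1 passed and was lower, Retnlg (-0.66), with a median of -0.74.

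In SPRET/EiJ mammary tissues 4 weeks after LDIR, 0 of 10 genes passed, against 2.2% of all probes, and with limma 0 had an unadjusted p under 0.05. The median was -0.02 against 0.04 over all probes. Emr1 was at 1.03, 1.27 and 1.20 in sham and at 1.31, 1.01 and 1.83 after LDIR. Mrc1 was at 3.13, 3.08 and 3.18 in sham and at 2.30, 2.98 and 3.46 after LDIR, with the lowest value on the array high in B cell markers. The widest difference was that of Itgax, 1.08 (SE 0.88, limma adjusted p = 0.972), with LDIR levels of -0.63, -4.48 and -2.28 that spread over more than the sham levels of -3.47, -3.25 and -3.90. Without LDIR A, the array high in B cell markers, the Itgax difference was 0.16, and without LDIR B it was 2.08 and passed. Without LDIR A the widest of the 10 was Cd14, at -0.30. Without it Cd163 (0.20) and Mrc1 (0.09) lay above 0, whereas over all 3 LDIR arrays their means were below the sham means. The B cell markers had a median difference of 2.65 in this comparison. None of the other macrophage genes passed, 0 of 30, with a median of 0.07.

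The difference between the strains in their LDIR difference at 4 weeks was tested directly. Of the 10 genes 1 passed both thresholds, Mrc1, against 3.53% of all probes. The Mrc1 difference after LDIR was 0.77 in BALB/c and -0.21 in SPRET/EiJ, which gave an interaction of 0.98 (SE 0.42, limma adjusted p = 0.957). Without the array high in B cell markers it was 0.68 and no longer passed. Emr1 probe 2 passed with 0.89 (SE 0.38, limma adjusted p = 0.957), while probe 1 gave 0.51. The values for Cd163 (1.62, SE 0.87), Lyz2 (0.98, SE 0.64), Csf1r (0.82, SE 0.44), Cd68 (0.82, SE 0.47) and Lyz1 (0.71, SE 0.39) did not pass. Cd163 was 1.05 without SPRET/EiJ LDIR A and 0.66 with normexp, and without BALB/c sham B the values were 0.97 for Cd163, 0.37 for Lyz2 and 0.50 for Csf1r. The median of the 10 genes was 0.76 against 0.01 over all probes, and Itgax was the only gene below 0 (-1.34). The Itgax value was -0.42 without SPRET/EiJ LDIR A, the array high in B cell markers, where the median of the 10 was 0.68 and 8 of 10 were above 0, -2.34 without SPRET/EiJ LDIR B, where it passed, and -0.88 without BALB/c sham B. Of the lists, complement had 4 of 6 genes past the thresholds, alternative activation 3 of 8 and other macrophage genes 4 of 30, all with the higher LDIR difference in BALB/c. Most lists of other leukocytes had medians below 0. These were B cell (-2.30), pan-leukocyte (-1.27), dendritic cell (-1.10), T and NK cell (-1.05) and neutrophil markers (-0.18). Mast cell markers had a median of 0.85, with 4 of 4 above 0 and 0 calls. Levels that follow are means over the genes of a list well above background on all 24 arrays, unlike the medians, which use all genes. In SPRET/EiJ after LDIR, mean B cell marker levels, over 2 of 4 genes, were 4.54, -0.85 and 0.76 on replicates A, B and C. T and NK cell levels, over 3 of 7 genes, were 4.24, 0.81 and 1.27. Pan-leukocyte levels there ran from 1.53 to 6.07 and dendritic cell levels, over 6 of 7 genes, from -0.59 to 1.80, both highest on replicate A. List medians without replicate A, the array high in B cell markers, are not given. Of the leukocyte lists, 1 of 7 dendritic cell markers, Cd209a (1.09), and 1 of 9 neutrophil markers, Ly6g (0.97), passed, with 2 of 7 and 4 of 9 above 0. Among the 12 ligands and partners 1 passed with the lower LDIR difference in BALB/c, Csf2, named after its values were seen, which was well above background on 0 arrays. The part of these markers in the interaction values was not tested.

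Pooled over 2, 4 and 8 weeks in BALB/c, 0 of 10 genes passed for LDIR against sham, against 1.08% of all probes, and with limma 0 had an unadjusted p under 0.05. Differences ran from -0.15 for Cd14 to 0.55 for Lyz2. Whether the LDIR difference itself changed with time was tested next. Between 2 and 4 weeks, 0 of 10 passed on probe 1, against 1.82% of all probes, with values such as 1.20 (SE 0.86) for Cd163 and 1.16 (SE 0.76) for Lyz1, and Itgam probe 2 passed with 0.82 (SE 0.36). The Cd163 value was 0.55 without 4-week sham B, 0.80 without 2-week LDIR A, 0.61 with a slide block and 0.49 with normexp. Between 4 and 8 weeks, 0 of 10 passed, against 6.01% of all probes. In both contrasts limma gave 0 members with an unadjusted p under 0.05. The median there was -0.92 against -0.21 over all probes, and the values included -1.79 (SE 0.86) for Cd163, -1.25 (SE 1.03) for Lyz2 and -1.06 (SE 0.51) for Mrc1. Without the arrays high in B cell markers, 6 of 10 passed and were lower, against 3.09% of all probes in that fit, namely Cd163 (-2.15), Mrc1 (-1.25), Lyz1 (-1.21), Cd68 (-1.12), Csf1r (-1.1) and Emr1 (-1.05). Their adjusted p values with limma in that fit ran from 0.74 for Lyz1 to 0.774 for Csf1r. With all BALB/c arrays and a slide block 0 of 10 passed, against 2% of all probes, and the values were -0.69 for Cd163, -0.52 for Mrc1, -0.55 for Csf1r and -0.37 for Emr1. With all arrays kept but 4-week sham B, Cd163 was -1.14 and Lyz2 -0.64. Each of these 2 contrasts uses the 4-week arrays, so they share samples.

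Sham tissues of BALB/c were also compared over time. Between 2 and 4 weeks 0 of 10 genes passed and with limma 0 had an unadjusted p under 0.05, against 3.04% of all probes past both thresholds, and the widest values were 0.79 (SE 0.40) for Itgax and 0.63 (SE 0.33) for Cd14. Without 4-week sham B they were 0.33 and 0.40. Between 4 and 8 weeks 2 of 10 passed, Cd68 and Csf1r, both higher at 8 weeks, against 13.8% of all probes in either direction and 5.33% higher. Cd68 was at 2.75, 2.58 and 2.57 at 8 weeks, above all 4-week sham values. Its difference was 0.87 (SE 0.25, limma adjusted p = 0.217), 1.83-fold, and probe 2 gave 1.72 (SE 0.41, limma adjusted p = 0.169). Csf1r was 0.96 higher (SE 0.35, limma adjusted p = 0.302), with 1.39 on probe 3 (SE 0.32, limma adjusted p = 0.165) and -0.23 on probe 2. Lyz1 (1.09), Lyz2 (1.5) and Itgax (1.31) had differences of like size with wider spread and did not pass. Without 8-week sham A, the array high in B cell markers, they were 0.52, 0.91 and 0.89. Groups did not overlap for 3 of 10 genes, against 23.4% of all probes, and the median was 0.83 against 0.05.

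Other values moved with this sham difference. Of the 30 other macrophage genes 7 passed and were higher at 8 weeks, among them Lyve1 (1.60), Ctss (1.48) and Fcer1g (1.03), and C1qa (1.19) and C1qb (1.1) passed among complement genes. The 3 skeletal muscle markers were all higher (median 5.17), and 5 of 6 adipocyte markers were lower (median -0.92). The B cell median was 2.50 over all 4 genes. Mean levels, over the 2 well above background on all 24 arrays, were 4.45, 0.11 and -0.11 on 8-week sham A, B and C. Mean B cell levels on the 4-week sham arrays were -0.06, -0.52 and -0.45. Of 9 neutrophil markers 3 passed and were higher, with a median of 0.42, and the pan-leukocyte median was 1.51. Pan-leukocyte levels ran from 0.90 to 5.10 in 8-week sham tissues, highest on sham A, and from 0.46 to 1.15 in 4-week sham tissues. The part of these markers in the sham differences was not tested. Within slide 2, where sham C was the only 4-week sham array, Cd68 was 0.77 and Csf1r 0.51 higher at 8 weeks. A fit with the slide as block term gave 0 of 10, against 5.88% of all probes. Without the 8-week array high in B cell markers, Cd68 passed with 0.81 and Csf1r, at 0.86, did not. Csf1r also lost its call with the methods' t-test, with the replicate block and without 4-week sham A (1.05), 4-week sham B (0.64) or 8-week sham B (0.94). The 4-week LDIR tissues were compared with the 4-week sham tissues used here too, so both contrasts share those 3 arrays.

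Between sham tissues of the strains at 4 weeks, 2 of 10 genes passed both thresholds, against 8.85% of all probes, Lyz1 lower and Itgax higher in BALB/c. With an adjusted p under 0.05 from limma there were 4 of 10, against 18.7% of all probes, which added Cd68 and Itgam, both lower in BALB/c. Groups did not overlap for 7 of 10, against 36.7%. SPRET/EiJ is another species of mouse and the probes were designed on the reference mouse genome, so a base difference under a probe and a difference in expression cannot be told apart. The slides of the strains differed too, and no slide held sham arrays of both. When any 1 of the 6 arrays was left out, 0 or 1 of the 10 genes passed. Quantile normalization, the methods' t-test and a fit of all 24 arrays with slide each gave 0 of 10. A random slide block gave -1.41 for Lyz1 and 2.65 for Itgax, both past. With no slide shared by the strains, that block cannot separate slide from strain.

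Lyz1 was at 6.09, 6.0 and 5.55 in SPRET/EiJ sham tissues, all above the BALB/c values of 4.44, 4.24 and 4.75. The difference, BALB/c minus SPRET/EiJ, was -1.40 (SE 0.23, limma adjusted p = 0.00893), 2.64-fold. Lyz2 was at 2.97, 3.12 and 2.84 in SPRET/EiJ, and its difference of -1.85 (SE 0.52, limma adjusted p = 0.0551) did not pass, although the groups did not overlap. With all 24 arrays and a slide block these differences were -0.68 for Lyz1 and -0.43 for Lyz2. On these arrays Lyz2 had the wider spread in BALB/c.

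Itgax was at -3.47, -3.25 and -3.90 in SPRET/EiJ and 2.63 higher in BALB/c (SE 0.43, limma adjusted p = 0.00899), a 6.2-fold difference on a single probe, and 1.51 with normexp background correction. Cd68 probe 1 was at 2.80, 3.59 and 2.66 in SPRET/EiJ, a difference of -1.26 (SE 0.30, limma adjusted p = 0.0347), whereas probe 2 gave 0.16 (SE 0.37, limma adjusted p = 0.8). The probes of Cd68 therefore disagreed on the strain difference but not on the 4-week LDIR difference. Itgam probe 1 was at 5.36, 5.43 and 5.49 in SPRET/EiJ, a difference of -0.75 (SE 0.20, limma adjusted p = 0.0465), and probes 2 and 3 gave -0.02 and 0.40. For Emr1 both probes had lower levels in BALB/c, with differences of -0.81 (limma adjusted p = 0.0691) and -1.32 (limma adjusted p = 0.0177). Differences of Mrc1 (-0.53), Csf1r (-0.28), Cd14 (0.08) and Cd163 (0.60) did not pass. With 1 array left out in turn, Cd163 ran from 0.25 to 1.25, Csf1r from -0.51 to 0.04 and Cd14 from -0.51 to 0.62. Over the alternatives Csf1r reached 0.27 and Mrc1 reached -1.05. Across the members the median was -0.64 against -0.06 over all probes.

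In the same comparison 6 of the 30 other macrophage genes passed, 1 higher in BALB/c, the Fc receptor gene Fcgr1 (4.67), and 5 lower, led by the complement receptor Vsig4 (-5.43) and the scavenger receptor Marco (-3.67). Of the ligands and partners 6 of 12 passed, 4 higher and 2 lower, the largest being Csf2ra (-1.97), Hp (-1.86) and Csf2rb (1.85). Of 5 phagocyte oxidase genes 2 passed and were lower, with a median of -0.84, among them the subunit gene Ncf1 (-1.53). Epithelial markers had a median of 1.61 and skeletal muscle markers of 2.90 with 0 calls each. Of the skeletal muscle markers 2 of 3 were above 0. The group mean of the 1 such gene well above background on all 24 arrays was 0.68 in BALB/c and 0.79 in SPRET/EiJ. Of 9 neutrophil markers 1 passed and was lower in BALB/c, and the median was -0.85. The mean level of the 7 well above background on all 24 arrays was -0.82 to -0.74 on the BALB/c arrays and 0.53 to 0.68 on those of SPRET/EiJ. Pan-leukocyte markers had a median of -0.81 with 0 calls and mean levels of 0.46 to 1.15 and 1.60 to 1.75. The part of these markers in the strain differences was not tested.

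**Figure D4:**
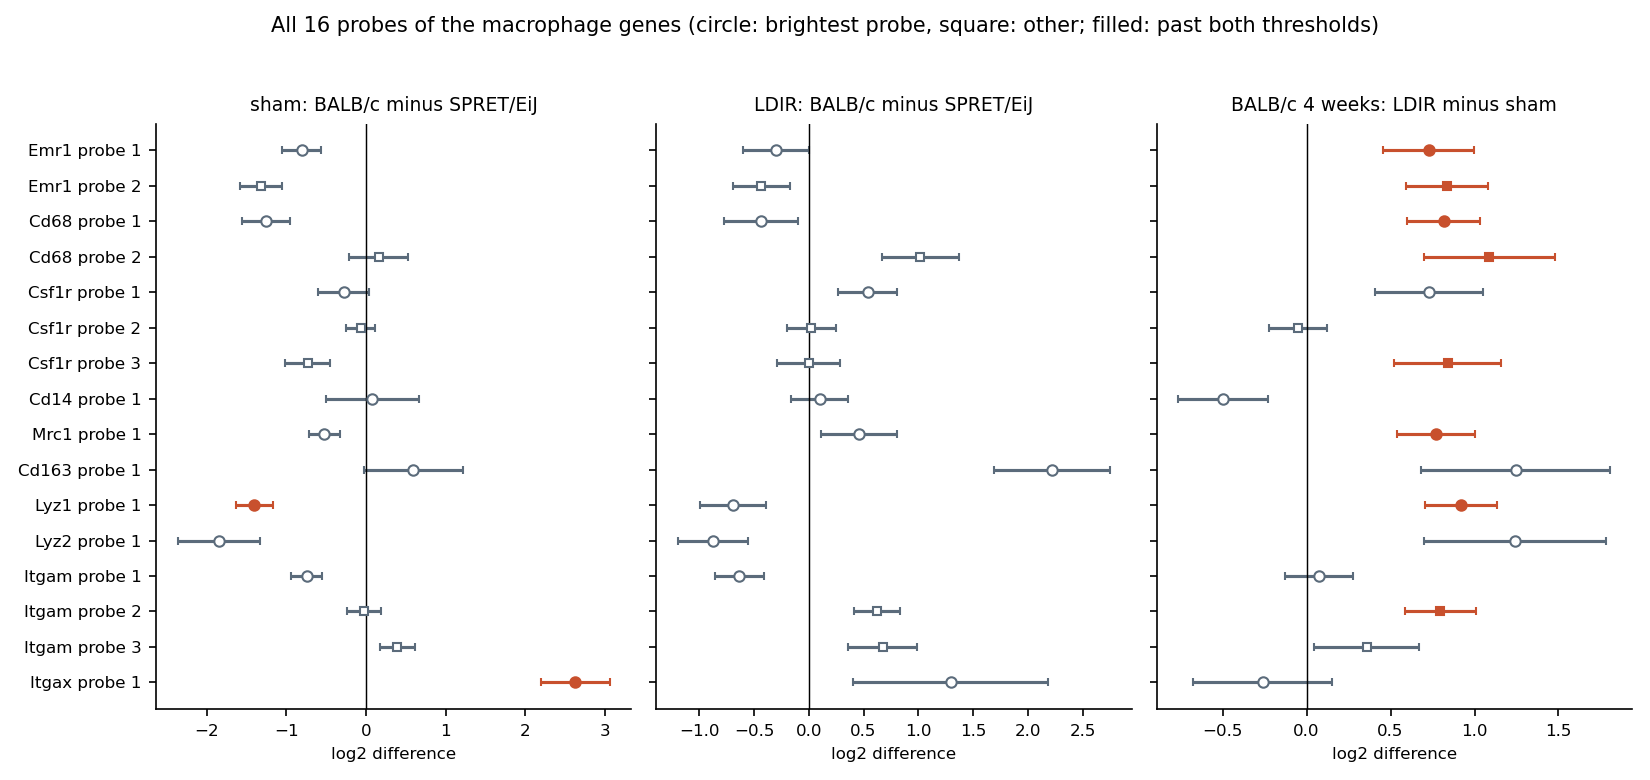
Difference (x axis, log2, bars are the standard error) of all 16 probes in the 2 strain comparisons, as BALB/c minus SPRET/EiJ, and in the 4-week LDIR comparison of BALB/c, with circles for probe 1, squares for other probes and filled points past both thresholds. Cd68 probe 1 is at -1.26 and probe 2 at 0.16 between sham tissues, and both are filled at 4 weeks after LDIR.

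After LDIR, 0 of 10 genes passed the strain thresholds, against 5.67% of all probes. With limma, 3 had an unadjusted p under 0.05, against 25% of all probes, and 1 had an adjusted p under 0.05, against 11.1%. This was Cd163, at -1.64, -2.32 and -2.40 in BALB/c and at -5.49, -3.55 and -3.98 in SPRET/EiJ, a difference of 2.22 (SE 0.53, limma adjusted p = 0.0434). Without the array high in B cell markers, which had the lowest value, it was 1.65 (limma adjusted p = 0.0223). It was 0.96 with normexp (limma adjusted p = 0.0457) and 1.46 with all 24 arrays and a slide block (limma adjusted p = 0.72). Lyz1 (-0.69), Lyz2 (-0.87) and Itgam (-0.63) did not pass. With all 24 arrays and a slide block Lyz1 was -0.24 and Lyz2 turned to 0.18, and Itgam turned to 0.22 when averaged over its probes. Itgax gave 1.29 (SE 0.89), and 2.21 without that array. Cd68 again differed between its probes, with -0.44 on probe 1 and 1.02 on probe 2. These LDIR tissues are other mice than the sham tissues, with BALB/c on slide 2 and SPRET/EiJ on slide 3, so slide and strain cannot be told apart here.

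The members did not share a single profile over the 18 BALB/c arrays. Pearson's r of each gene with the mean of the other members, given as a description, was 0.97 for Cd68, 0.96 for Csf1r, 0.82 for Lyz2 and 0.79 for Lyz1. It was 0.50 for Emr1, 0.42 for Itgax, 0.39 for Mrc1 and 0.33 for Cd163, and -0.05 for Cd14 and -0.24 for Itgam. Lyz1 and Lyz2 had an r of 0.92 over these 18 arrays and 0.88 over the 6 SPRET/EiJ arrays. The arrays share groups, slides and 2 of the 3 arrays high in B cell markers. Probes of the same gene followed each other for Emr1 (0.93), Cd68 (0.95) and Csf1r probes 1 and 3 (0.96), and less for Csf1r probe 2 with probes 1 and 3 (0.30 and 0.32) and for Itgam, where the 3 pairs gave 0.28, 0.10 and 0.40. Of 21371 other genes well above background on all arrays, those most like the mean of the 10 members were Fcer1g (0.964), Slc11a1 (0.962), Gp49a (0.959), Clec4a3 (0.959) and Nfam1 (0.953). Over the 6 SPRET/EiJ arrays the same genes gave 0.32, 0.56, 0.69, 0.64 and 0.34.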

How the data were processed

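The authors deposited scanner output of 24 arrays, whose background-subtracted intensity values were made by Agilent Feature Extraction 10.10.1.1, with probe positions on mm9, and log2 values that they normalized to the 75th percentile. The log2 intensity was taken here, minus the array's 75th percentile over spots that are not controls (59305), leaving out 3777 outlier spots, and averaged over spots of a probe. Groups, taken from the sample labels, were tested in R 4.3.3 with limma 3.58.1 over all probes, adjusted by Benjamini-Hochberg. Figures were drawn with matplotlib 3.10.9. The procedure was tested on simulated data. The number of arrays, 3 in a group, limits the precision.

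Members and gene lists were chosen with earlier results of these data known. Named genes are the members and, of each list, at most 3 past the thresholds with the largest difference that were well above background in the higher group. Csf2, outside this rule, was named after its values were seen. Replicate letters looked like pairs only at 2 weeks, where deviations of same-letter arrays correlated by 0.167, 0.481 and 0.172. The main fit was unpaired there too, and the replicate block was run only as an alternative. Alternatives were the authors' log2 values, normexp (offset 50), quantile normalization, the methods' t-test, detected probes only, a fit of all 24 arrays, blocks for replicate or slide, keeping outlier spots, averaging a gene's probes and leaving out each array. The 3 arrays high in B cell markers and a random slide block were added after seeing the data.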

Additional observations from a re-analysis of the deposited data

Results flagged for a closer look

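Mrc1, the mannose receptor gene, differed between the strains in its LDIR difference at 4 weeks by a test of that difference itself, with a value of 0.98 (SE 0.42, limma adjusted p = 0.957), past the unadjusted thresholds and not past adjustment over all probes. When the 12 arrays were left out in turn, Mrc1 ran from 0.68 to 1.26 and no longer passed in 8 cases, namely without BALB/c sham B (0.82), LDIR A (0.83) or LDIR B, or without SPRET/EiJ LDIR A (0.68), LDIR B, sham A, sham B or sham C. All 3 BALB/c LDIR arrays lay above all 3 BALB/c sham arrays. The SPRET/EiJ groups overlapped.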

How the results depend on the processing

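No difference of a member that passed the thresholds reversed its sign under any alternative run. At 4 weeks after LDIR in BALB/c, 4 genes passed, against 7 among detected probes only (5.53% of all probes tested in that fit passed, and such shares follow in brackets) and 0 with slide as a block (4.6% and 1.2%), in the comparison's own arrays or in all 24. Emr1 also lost its call with the methods' t-test and the replicate block, and Lyz1 with all 24 arrays in one fit, where Csf1r passed. Lyz2 passed with normexp (1.21), and Csf1r, Cd163 and Lyz2 among detected probes only. Of the other macrophage genes 14 were higher, against 8 with the methods' t-test, 8 with all 24 arrays in one fit, 4 with the slide block and 0 with both. For sham tissues of the strains, 2 passed, against 0 with quantile normalization (8.82%), 0 with the methods' t-test (4.94%), 1 with all 24 arrays (12.4%), 0 with slide added (2.63%) and 1 with the replicate block (5.73%). The interaction count of 1 became 0 with all 24 arrays, with slide (1.6%) or without (3.11%), and 0 without the arrays high in B cell markers (4.5%). For sham tissues at 8 against 4 weeks, 2 passed, against 5 with normexp (9.88%), 1 with the t-test (11.2%), 4 with all 24 arrays (17.1%), 0 with slide blocks (5.88% and 12.1%) and 1 without the arrays high in B cell markers (20.1%). Counts of 0 became 1 at 2 weeks (quantile, 2.3%), 1 at 8 weeks (arrays high in B cell markers left out, 4.37%), 1 for the LDIR difference at 4 against 2 weeks (normexp, 0.679%, and those arrays left out, 3.77%), 2 with normexp (0.79%) and 1 with the slide block (3.41%) for sham at 4 against 2 weeks, and, for the LDIR difference at 8 against 4 weeks, 3 with normexp (1.49%), 1 with quantile (4.47%), 1 with all 24 arrays (6.2%) and 6 without those arrays (6.01%). The cause was not tested.

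With each array left out in turn, counts ran from 0 to 1 at 2 weeks (1 without sham B, sham C or LDIR B), 3 to 7 at 4 weeks (7 without sham A), 5 to 14 for the other macrophage genes (5 without LDIR A), 0 to 1 at 8 weeks (1 without sham A), 0 to 1 in SPRET/EiJ (1 without sham B or LDIR B), 0 to 1 between sham strains (0 without BALB/c sham A or SPRET/EiJ sham A or B), 0 to 3 for the interaction (3 without SPRET/EiJ LDIR C, 2 without BALB/c sham A or C or SPRET/EiJ LDIR B, 0 without BALB/c sham B, LDIR A or LDIR B or without SPRET/EiJ LDIR A or any sham), 0 to 1 for the LDIR difference at 4 against 2 weeks (1 without 2-week LDIR B or 4-week sham B), 0 to 5 at 8 against 4 weeks (5 without 8-week LDIR B, 3 without 8-week sham A, and 1 or 2 without any of 2-week LDIR B and C, 2-week sham B, 4-week sham A and C, 4-week LDIR C, 8-week sham B and 8-week LDIR A), 0 to 1 for sham tissues at 4 against 2 weeks (1 without 2-week sham A or 4-week sham A or C) and 1 to 4 at 8 against 4 weeks (4 without 8-week sham C, 1 without 4-week sham A or 8-week sham A or B). Without each of the 6 arrays in turn, the strain difference of Lyz1 ran from -1.57 to -1.28 and lost its call in 5 cases, and that of Itgax ran from 2.17 to 2.95 and lost it in 4. Lyz1 was -0.68 and Itgax 2.86 with all 24 arrays and slide, and -1.23 and 2.49 with quantile normalization, and neither passed. Averaged over its probes, the strain difference was -0.55 for Cd68 and -0.12 for Itgam. Where limma gave a count of 0 members, the methods' t-test gave 0 too. In the left-out fits, the share of all probes past the thresholds ran from 3.3% to 4.57% at 2 weeks, 3.86% to 10.9% at 4 weeks, 1.08% to 3.31% at 8 weeks, 1.9% to 4.66% in SPRET/EiJ, 5.73% to 6.68% between sham strains, 2.57% to 6.12% for the interaction, 1.4% to 3.97% and 3.33% to 9.7% for the LDIR difference at 4 against 2 and 8 against 4 weeks, and 2.72% to 4.48% and 9.27% to 20.1% for sham tissues over the same times. The replicate block gave 0 at 2 weeks, 3 at 4 weeks (without Emr1) and 2 for sham tissues at 8 against 4 weeks (Cd68 and Lyz2, without Csf1r), and between sham strains it ended the call of Lyz1. It changed no other call of a member. Every member probe was well above background, but members at low levels moved with the background correction: with normexp Cd163 was 0.55 against 1.25 at 4 weeks after LDIR and 0.96 against 2.22 between LDIR strains, and Itgax was 1.51 against 2.63 between sham strains.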
